A study of Mus musculus with 2 samples.

Results

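The semaphorins, plexins and neuropilins were the 31 protein-coding genes whose symbols start with Sema and a digit or with Plxn, together with Nrp1 and Nrp2, out of 21644 protein-coding genes in the GENCODE M21 annotation of the mouse. They comprised 20 semaphorins, 9 plexins and 2 neuropilins, and membership was decided by name, with no measured value. Their chromatin was read from DNase-seq, in which the nuclease DNase I cuts DNA that is not covered by nucleosomes, in the facial prominences, from which the face grows out. The tissue came from healthy B6NCrl mouse embryos at day 11.5, with males and females pooled and no treatment or engineered allele given in the labels. There were 2 libraries of this 1 group, labelled biological replicates 1 and 2 and taken from separate biosamples that carry the same donor entry. There was thus no contrast between conditions and no test, and each value below is given for both libraries or for the sites that both share.

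Semaphorins are secreted or membrane-bound ligands that steer growing axons, migrating neural crest cells and endothelial cells, most often by repulsion. Plexins are their receptors and act on small GTPases and the cytoskeleton from inside the cell, and neuropilins are co-receptors that bind secreted class 3 semaphorins beside plexins of the A family, and also bind VEGF. In the embryonic face the system is known for keeping trigeminal and facial nerve axons, crest streams and vessels in their paths.

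Each library had peaks of 150 bp, which the authors called on that library alone, with a strength value from the authors on a scale that no label or header states. Strength was therefore used as a rank within its own library (percent rank, where 100 is the strongest peak) and never compared as a level between libraries. Replicate 1 had 209299 peaks on the chromosomes analysed and replicate 2 had 219061, and the number of reads behind them is unknown. A peak was called shared when a replicate 2 peak covered at least 75 bp of a replicate 1 peak, which gave 85950 shared peaks. A promoter peak had its centre within 1000 bp of a protein-coding transcription start site (TSS). All other shared peaks, 62957 of them, were distal and were given to the gene with the nearest TSS, which need not be the gene they act on. In bulk tissue, an open site in fewer cells and a less open site in each cell cannot be told apart. Marker genes of cell types were counted too, beside 64.2% of all protein-coding genes with a shared promoter peak. All 6 mesenchyme markers and 5 of 6 ectoderm markers had one. The count was 5 of 6 for neurons and glia, 4 of 6 for muscle, 2 of 6 for endothelium, and 0 of 6 each for erythroid cells and macrophages. In single libraries endothelial markers had a promoter peak at 2 of 6 in replicate 1 and 6 of 6 in replicate 2. Erythroid markers had 2 and 3, and macrophage markers 1 and 0. Ectoderm and neural markers tied, so these counts alone cannot tell which cell types the tissue held.

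Sequences at the promoters show the range that the family covered. The first pair below are among the strongest promoter peaks of the family, at Sema4c, a membrane ligand, and Plxnb2, its receptor. The next pair are the weakest, at Sema4a and at Sema3e, the class 3 ligand that binds Plxnd1 directly. The last is the 150 bp around the TSS of Plxnb3, where neither library had a peak. They are mm10 sequence, plus strand, with CG dinucleotides in capitals.
Sema4c promoter, chr1:36557196-36557345: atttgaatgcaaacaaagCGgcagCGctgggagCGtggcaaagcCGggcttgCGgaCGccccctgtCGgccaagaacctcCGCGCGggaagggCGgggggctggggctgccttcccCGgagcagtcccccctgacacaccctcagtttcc
Plxnb2 promoter, chr15:89180696-89180845: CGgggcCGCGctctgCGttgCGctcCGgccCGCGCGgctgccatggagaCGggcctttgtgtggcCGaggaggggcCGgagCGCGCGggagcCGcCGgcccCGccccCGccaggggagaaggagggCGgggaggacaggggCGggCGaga
Sema4a promoter, chr3:88458896-88459045: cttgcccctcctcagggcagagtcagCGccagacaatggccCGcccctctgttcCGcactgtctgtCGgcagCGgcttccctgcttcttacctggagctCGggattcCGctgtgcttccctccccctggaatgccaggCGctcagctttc
Sema3e promoter, chr5:14025376-14025525: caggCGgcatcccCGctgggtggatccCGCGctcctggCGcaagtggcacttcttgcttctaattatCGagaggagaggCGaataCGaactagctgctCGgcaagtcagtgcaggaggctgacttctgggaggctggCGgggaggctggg
Plxnb3 start site, chrX:73757025-73757174: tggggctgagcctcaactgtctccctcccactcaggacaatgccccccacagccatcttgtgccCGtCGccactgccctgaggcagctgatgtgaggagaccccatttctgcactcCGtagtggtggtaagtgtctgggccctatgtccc
The Plxnb2 and Sema4c sequences hold 22 and 12 CG dinucleotides, those of Sema4a and Sema3e 8 and 10, and that of Plxnb3 has 3. Among the members' strongest promoter peaks whose sequence was read, the number ran from 8 to 32, the highest at Plxna1.

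A shared promoter peak was found at 26 of 31 members (83.9%), where the share over all protein-coding genes was 64.2%. Counted in each library alone, 28 members had a promoter peak in replicate 1 (all genes 67.3%) and 30 in replicate 2 (all genes 70.8%). Open promoters followed CpG content in the genome at large, and most members lie in its upper range. The CpG ratio is observed over expected CG dinucleotides in 1000 bp around the TSS, and genes were split into quartiles by the highest ratio over their TSSs. Of the members, 2 fell in the lowest quartile, 5 in the second, 14 in the third and 10 in the highest. Shared promoter peaks were present at 0, 4, 13 and 9 of them, beside 5.8%, 59.0%, 94.9% and 97.2% of all genes in the same quartiles. In the third and the highest quartile, where most members lie, their shares were near those of other genes.

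Among the ligands, the secreted class 3 semaphorins had shared promoter peaks at 5 of 7 genes. Sema3f, which repels axons through Nrp2, ranked highest of them, with a mean percent rank of 98.4. Its strengths were 97 in replicate 1 and 134 in replicate 2. Sema3c, known for guiding crest cells of the cardiac outflow tract, had 76 and 116, and Sema3d had 78 and 113. Sema3a, the best studied repellent of sensory axons, had a lower rank, with strengths of 45 and 87 and a mean percent rank of 86.2. Sema3e had the lowest strengths of the class, 33 and 71, at a mean percent rank of 77.9. The deposited −log10 q of the hotspot (a wider enriched region) over the Sema3a peak was 6.0 in replicate 1 and at the ceiling of 100 in replicate 2. At Sema3e these values were 4.27 and 100.

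The transmembrane class 4 ligands had shared promoter peaks at all 6 genes. Sema4c had strengths of 105 and 132 (mean percent rank 98.7) and Sema4b 89 and 132 (97.6). Sema4d, the ligand of Plxnb1, had 66 and 109, Sema4f 57 and 115, and Sema4g 63 and 101. Sema4a, known from T cells and the retina, lay below all of these with 37 and 66, and its hotspot in replicate 1 had a −log10 q of 4.12. The CpG ratio was 0.23 at the TSSs with this peak and 0.27 at its other TSSs of highest ratio, the value by which the gene was placed in the second quartile.

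In the membrane-bound class 6, Sema6a, a ligand of Plxna2 and Plxna4, had the highest mean percent rank of the family, 99.2, from strengths of 102 and 139. That value is the 89.7th percentile among the 13896 genes with a shared promoter peak. The highest-ranked promoter peak of the family is thus not among the extremes of the genome. Its hotspot was 7736 bp long in replicate 1 and 2274 bp in replicate 2. Sema6c followed with 92 and 130 and Sema6b with 66 and 105. In class 5, which carries thrombospondin repeats, Sema5b had 60 and 118. Sema7a, which is anchored by a lipid and binds Plxnc1 and integrins, had 67 and 105.

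The receptors had shared promoter peaks at 10 of 11 genes. All 4 plexins of the A family had one: Plxna2 with strengths of 85 and 122, Plxna1 with 79 and 102, Plxna3 with 68 and 85 and Plxna4 with 47 and 102. The Plxna4 hotspot reached a −log10 q of only 4.41 in replicate 1, and 100 in replicate 2. In the B family, which signals to RhoA, Plxnb2 had 104 and 131 (mean percent rank 98.6) and Plxnb1 80 and 117. Plxnd1, known for patterning vessels, had 93 and 114, and Plxnc1 had 52 and 91 with a replicate 1 hotspot at 6.0. The neuropilins differed in rank: Nrp2 had 86 and 127 (96.9) and Nrp1 58 and 81 (87.5). At the 21 other members with a shared promoter peak, the hotspots over the strongest peak were at the ceiling in both libraries.

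**Figure D1:**
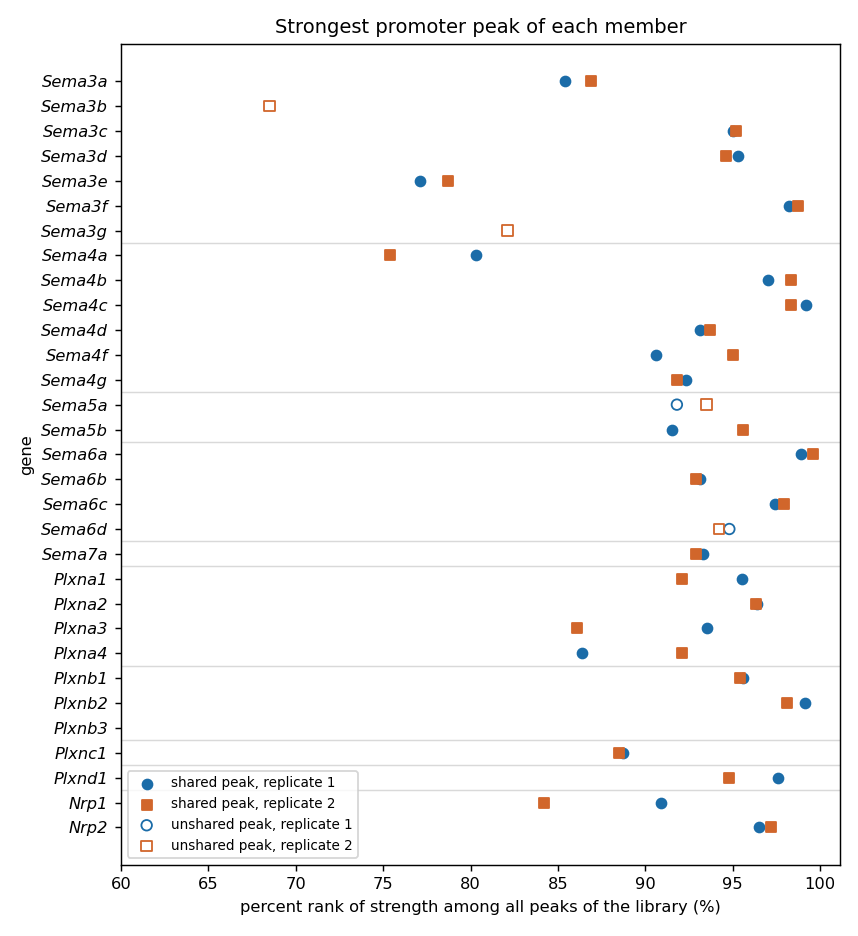
Percent rank of the strongest promoter peak of each gene among all peaks of its library (horizontal axis, percent), with 1 row per gene grouped by role, circles for replicate 1 and squares for replicate 2. Filled symbols are shared peaks and open symbols are peaks without a match, and Plxnb3 has no symbol because it had no promoter peak. The lowest filled symbols are those of Sema3e and Sema4a.

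Over the 26 members the median percent rank of the strongest shared promoter peak was 93.7, below the 96.5 of all 13896 genes with one. The peak centre lay within 100 bp of a TSS at 17 of the 26 and within 500 bp at all 26. The member nearest to the overlap threshold was Sema4a, whose peaks overlapped by 90 bp, while 8 members had promoter peaks at identical positions in both libraries. At 3 members more than 1 group of TSSs had a shared promoter peak. Plxnb2 had its strongest peak at the upstream TSS and another, of strengths 60 and 116, 997 bp downstream of an internal one. The latter peak lay just inside the window, and its replicate 2 match was centred just beyond it, so it does not show that the internal TSS was open. The CpG ratio at the internal TSS was 0.13. Sema4b had 73 and 120 at its first TSS and 89 and 132 at the second. Sema6b had 66 and 105 at the first and 45 and 58 at the second. At the other 10 members with several groups of TSSs, no more than 1 group had a shared peak.

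The 5 members without a shared promoter peak did not look alike. Plxnb3 had none in either library and a CpG ratio of 0.10. Sema3g, a class 3 ligand known from endothelium, had a single peak of strength 77 in replicate 2, 29 bp upstream of its TSS, and none in replicate 1, with a CpG ratio of 0.18. Sema3b had peaks of 57 and 52 in replicate 2 at separate TSSs and none in replicate 1. The other pair missed the definition by little. Sema6d, a ligand of Plxna1, had peaks of 75 in replicate 1 and 111 in replicate 2 that overlapped by 70 bp. These lay 145 and 225 bp upstream of a TSS inside the gene, nearer to its 3′ end. At its outermost TSS, where the gene of 577.8 kb begins, only replicate 2 had peaks, with strengths of 19, 64 and 37. Sema5a had 61 in replicate 1 and 108 in replicate 2, at centres 222 and 62 bp upstream of the TSS and 10 bp apart edge to edge. Sema5a and Sema6d thus had promoter peaks in each library, but not at matching positions.

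The distal sites that carry the next results are shown first, as mm10 sequence on the plus strand, with the motif named for each in capitals. They are the strongest shared distal peaks of Sema3b, Sema5a, Sema3a, Sema3f, Plxna2 and Sema3d, an intronic Nrp2 peak and a site close to Plxna4. AP-2 (GCCNNNGGC), the letters of a factor family of crest and ectoderm, are in capitals at Sema3b, Sema5a and Sema3f. The E-box CATCTG, read on either strand, is marked at Sema3a and Nrp2. At Plxna2 the E-box and the SOX letters ACAATGG are marked, at Plxna4 AP-2 and the homeodomain letters TAATTA, and at Sema3d the CTCF consensus. Only exact matches are marked. The Sema3b, Sema5a, Plxna2 and Plxna4 sequences also hold unmarked stretches close to the CTCF consensus.
Sema3b distal, chr9:107612796-107612945: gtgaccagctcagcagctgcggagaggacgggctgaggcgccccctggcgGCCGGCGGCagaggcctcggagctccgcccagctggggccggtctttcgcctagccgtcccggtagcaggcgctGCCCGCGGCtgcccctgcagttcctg
Sema5a distal, chr15:32246096-32246245: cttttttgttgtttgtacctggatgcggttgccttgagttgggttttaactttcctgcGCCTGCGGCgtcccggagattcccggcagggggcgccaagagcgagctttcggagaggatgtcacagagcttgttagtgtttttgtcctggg
Sema3a distal, chr5:13125296-13125445: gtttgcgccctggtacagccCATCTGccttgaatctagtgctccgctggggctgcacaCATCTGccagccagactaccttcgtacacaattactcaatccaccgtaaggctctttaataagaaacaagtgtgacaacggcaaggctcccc
Sema3f distal, chr9:107714616-107714765: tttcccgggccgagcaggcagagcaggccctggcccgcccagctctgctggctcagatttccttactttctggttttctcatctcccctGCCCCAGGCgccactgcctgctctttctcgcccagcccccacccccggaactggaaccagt
Plxna2 distal, chr1:194223096-194223245: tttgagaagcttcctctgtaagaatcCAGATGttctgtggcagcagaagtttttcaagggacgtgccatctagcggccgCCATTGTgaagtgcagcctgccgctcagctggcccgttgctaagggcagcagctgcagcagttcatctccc
Nrp2 intronic, chr1:62766896-62767045: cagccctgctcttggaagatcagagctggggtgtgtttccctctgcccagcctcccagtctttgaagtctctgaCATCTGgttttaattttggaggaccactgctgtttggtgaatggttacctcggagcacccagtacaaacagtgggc
Plxna4 distal, chr6:32591496-32591645: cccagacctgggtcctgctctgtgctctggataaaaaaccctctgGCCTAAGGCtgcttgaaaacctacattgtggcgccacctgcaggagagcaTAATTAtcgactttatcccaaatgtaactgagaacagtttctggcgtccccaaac
Sema3d distal, chr5:12562336-12562485: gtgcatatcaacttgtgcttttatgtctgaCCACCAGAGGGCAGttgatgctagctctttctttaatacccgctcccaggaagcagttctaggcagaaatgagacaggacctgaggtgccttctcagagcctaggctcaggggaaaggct
Of these, the Sema3b site lay 3642 bp upstream of its nearest Sema3b TSS, between genes, and had strengths of 101 and 123. It was nearer, at 3176 bp, to a TSS of the neighbouring Gnai2 in the full annotation. That TSS is outside the protein-coding set by which peaks were given to genes, so the assignment to Sema3b depends on the set used. The Sema5a site lay 1358 bp downstream of the TSS in an intron of the gene and just outside the promoter window, with 94 and 116. The Sema3a site lay 271413 bp upstream of the nearest coding TSS with 69 and 118. It was 43 bp from the start of a processed transcript of Sema3a at the annotated 5′ end of the gene, so that it also covers the start of a noncoding Sema3a transcript. The Plxna2 site, with 61 and 113, was 396654 bp upstream and 412 bp from the start of the long noncoding RNA 4930503O07Rik.

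At least 1 shared distal peak was assigned to 28 of 31 members (90.3%), beside 62.8% of all protein-coding genes, and 10 or more to 12 members (38.7%), beside 7.4%. Counts of distal peaks grow with the stretch of genome that lies nearest to a gene's TSSs, its interval, and the members' intervals were long, with a median of 86.2 kb beside 47.0 kb for all genes. The 62957 distal peaks were therefore shared out in proportion to interval size, which predicts 205.1 for the family. The count was 280, or 1.36 times the prediction. More peaks than predicted lay at 22 of 31 members (71.0%), beside 44.7% of all genes. The median member had 5 shared distal peaks and the median gene had 1. Peaks were concentrated, since the 8 members with the most held 178 (63.6%) of them.

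The ratio to the prediction fell to 1.19 among the 50000 strongest peaks of each library, where the count was 81 for 68.3 predicted. It rose to 1.89 in replicate 1 alone (1066 peaks) and was 1.43 in replicate 2 alone (838 peaks).

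**Figure D2:**
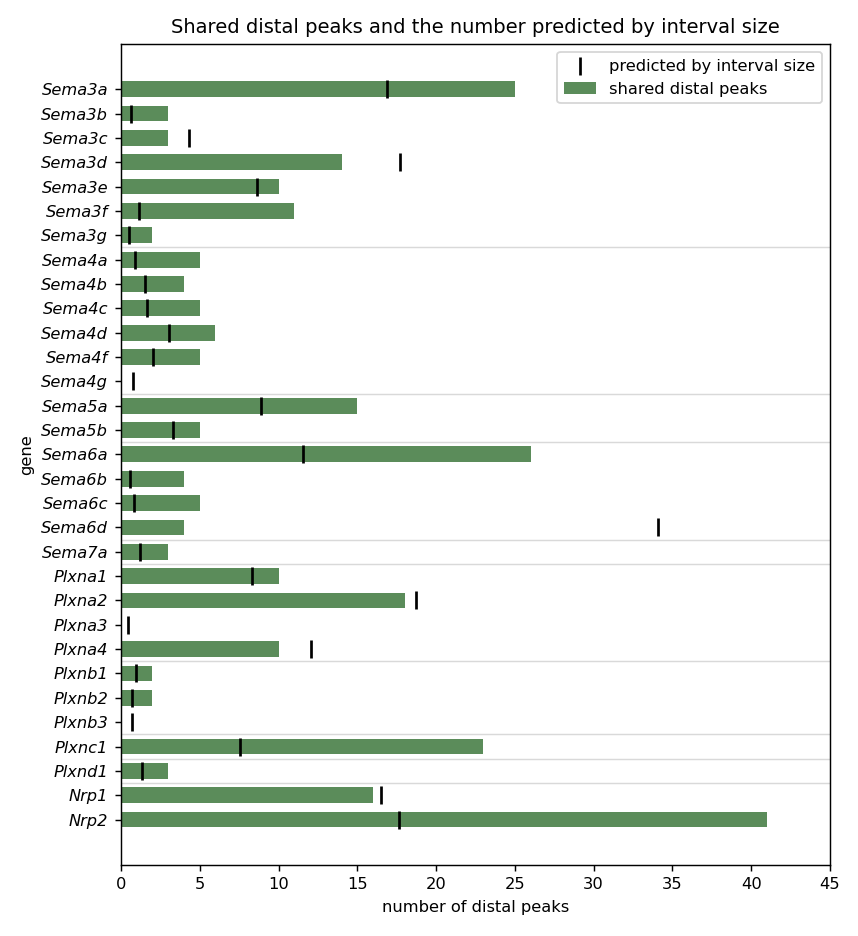
Number of shared distal peaks of each gene (bars, horizontal axis) and the number that the size of its interval predicts (black ticks), with 1 row per gene grouped by role. Nrp2 has the longest bar, 41, and Sema6d the largest shortfall, 4 peaks for 34.06 predicted.

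Among class 3 ligands, 68 shared distal peaks were counted for 49.8 predicted. Sema3a (chr5:13125414-13602565) had 25 for 16.86, of which 13 lay in its own introns and 21 upstream of the nearest coding TSS, at a median distance of 270.3 kb. Sema3f had the largest excess of the class in relative terms, 11 for 1.15, all within 28.6 kb of a TSS. Sema3d had 14 for 17.68, Sema3e 10 for 8.64, Sema3c 3 for 4.30, Sema3b 3 for 0.62 and Sema3g 2 for 0.51. The counts of some members of this class lay on the other side of their predictions in single libraries. Sema3d had 168 for 48.70 in replicate 1 and 46 for 50.52 in replicate 2, Sema3c 17 for 11.84 and 9 for 12.28, and Sema3e 15 for 23.82 and 30 for 24.71. Sema3a was above its prediction in both, with 153 for 46.45 and 77 for 48.19, but had 2 for 5.61 among the 50000 strongest peaks, where Sema3e had 0 for 2.88. Sema3a, Sema3c, Sema3d and Sema3e all lie on chromosome 5, and Sema3b and Sema3f on chromosome 9.

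Class 4 ligands had 25 for 9.9 predicted. Their intervals had a median of 66.3 kb, beside 86.2 kb for the family and 47.0 kb for all genes. Sema4d had 6 for 3.03, Sema4a 5 for 0.88, Sema4c 5 for 1.63, Sema4f 5 for 2.06 and Sema4b 4 for 1.54, while Sema4g had none. In replicate 1 alone Sema4f had 5 for 5.68, and in replicate 2 alone 12 for 5.89. With the 50000 strongest peaks Sema4d had 1 for 1.01. Sema4a, whose promoter was among the weakest, had a distal site of strengths 72 and 115 at 6149 bp upstream, stronger than the promoter peak itself in both libraries. The strongest Sema4c site, with 67 and 117, lay 22.2 kb upstream in an intron of another gene.

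In class 6, Sema6a had 26 for 11.58. Its strongest distal peaks, of strengths 106 and 122 at 1583 bp and 83 and 118 at 1043 bp upstream of a TSS, lay in the same long hotspot as the promoter and close outside the window. Sema6c had 5 for 0.84 and Sema6b 4 for 0.56. Sema6d was the exception of the class, with 4 for 34.06 predicted from an interval of 1424.9 kb, a ratio of 0.12. It had 14 for 93.84 in replicate 1 alone and 58 for 97.35 in replicate 2 alone. Of its replicate 2 peaks, 6.9% had a match, so the shared count was further below the prediction than that of replicate 2. Sema5a had 15 for 8.89, and all 15 lay in its own introns, up to 239.1 kb downstream of the TSS. Sema5b had 5 for 3.33, likewise all in its own introns, and Sema7a had 3 for 1.24.

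Of the receptors, Nrp2 (chr1:62703285-62818695), the co-receptor of Sema3f, had 41 for 17.63 predicted, the 27th highest count of all protein-coding genes. Its peaks spread over both sides of the TSS, 19 upstream and 22 downstream, to 486.2 kb. They lay in its own introns in 13 cases, in introns of another gene in 13, between genes in 14 and in an exon in 1. The intronic site 63.3 kb downstream had strengths of 55 and 105. Nrp1 (chr8:128358604-128503363), the co-receptor of Sema3a, had 16 for 16.49, of which 12 were intergenic and upstream, and it had 47 for 45.42 in replicate 1 alone and 56 for 47.12 in replicate 2 alone. The neuropilin genes thus have intervals of about the same size, 737.7 and 689.7 kb, and different numbers of shared distal sites.

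Plxnc1, the receptor of Sema7a, had 23 for 7.58, of which 10 lay in its own introns and 12 between genes. Plxna2 had 18 for 18.75, Plxna1 10 for 8.30, Plxna4 10 for 12.07 and Plxna3 none, which left the A family at 38 for 39.6 in shared peaks. In single libraries the A family had 137 for 109.1 in replicate 1 and 118 for 113.2 in replicate 2. Plxna2 had 101 for 51.65 and 60 for 53.58, Plxna1 14 for 22.87 and 18 for 23.73, and Plxna4 22 for 33.26 and 39 for 34.50. Whether these plexins lay above or below the prediction thus changed with the peaks counted. Plxna1 had 2 for 2.76 among the 50000 strongest peaks. Of the 10 Plxna4 sites, 8 lay in its own introns, and the strongest, with 64 and 111, was intergenic 122.2 kb upstream. Plxnb1 and Plxnb2 had 2 each for 0.95 and 0.68 (Plxnb1 0 for 0.32 among the 50000 strongest), Plxnb3 had none, and Plxnd1 had 3 for 1.34. Semaphorins together had 155 for 120.2 and receptors 125 for 85.0.

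**Figure D3:**
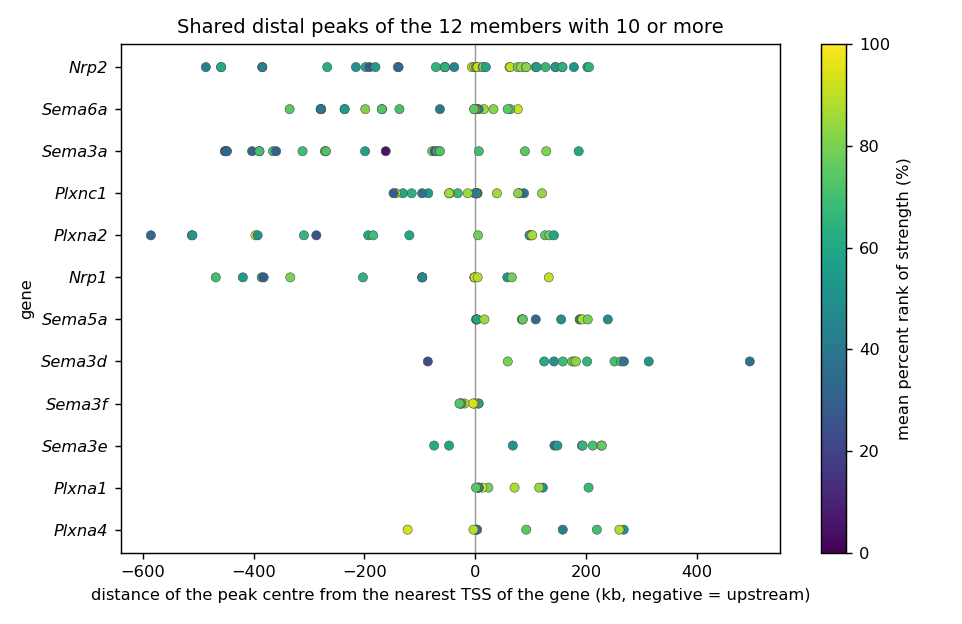
Position of each shared distal peak relative to the nearest TSS of its gene (horizontal axis in kb, negative values upstream) for the 12 members with 10 or more, coloured by mean percent rank of strength over both libraries. Sema5a and Plxna1 have peaks on the downstream side alone, Sema3f peaks lie within 28.6 kb, and Nrp2 peaks lie on both sides.

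As a group, the 280 sites lay more often in the members' own introns than other shared distal peaks did. They were in introns of the gene itself in 48.2% of cases, beside 33.2% of all shared distal peaks, in introns of another gene in 6.07% (9.46%), in exons in 3.93% (4.63%) and between genes in 41.8% (52.7%). Their median distance from the TSS was 72.0 kb, beside 30.7 kb, and 40.7% lay beyond 100 kb, beside 22.8%, while 26.4% lay within 10 kb, beside 26.5%. Long introns and long intervals of the members move with both values, and their part was not tested. GC content had a median of 50.7% beside 50.0%. The sites were somewhat weaker than other shared distal peaks, with median percent ranks of 66.6 in replicate 1 and 71.8 in replicate 2 beside 71.9 and 73.3. Hotspots over them were at the ceiling of −log10 q at 86 sites in replicate 1, at 185 in replicate 2 and at 70 in both.

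The line between promoter and distal was sharp by definition only. Sema6b had a distal peak 1008 bp upstream, Nrp1 one 1073 bp upstream and Sema6a peaks at 1023, 1043 and 1063 bp upstream, while Plxnb2 had a promoter peak 997 bp downstream of a TSS and Sema5b one 931 bp upstream. Of the 280 distal sites, 10 lay within 1200 bp of the TSS and 34 within 2500 bp. When transcripts of every kind in the full annotation were counted, 17 of the 280 lay within 1000 bp of some TSS. Besides those at Sema3a and Plxna2, these included the Sema3b site 3171 bp downstream (strengths 78 and 112), 65 bp from a retained-intron transcript, and the Plxna1 site 12.6 kb downstream (75 and 109), 29 bp from Gm44207. The 280 peaks merged into 267 sites where they overlapped.

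Motif letters were counted on both strands of each 150 bp site and set beside the share of all 62957 shared distal peaks that hold them. AP-2 letters stood in 30 of 280 sites (10.7%, exact 95% interval 7.35 to 14.9), beside 6.26%. Sites of 1 locus are not independent and the interval covers counting error only. The 280 sites counted here are peaks, which merge into 267 where they overlap, so the same letters can be counted more than once. With the distal peaks of 1 library alone the margin was smaller, at 4.97% beside 4.06% in replicate 1 and 7.16% beside 5.85% in replicate 2. The E-box CATCTG was the most frequent, in 20.7% beside 18.4%, but its share was 14.2% beside 14.2% in replicate 1 alone and 21.4% beside 19.7% in replicate 2 alone. It stood in 12 of 41 sites at Nrp2, 7 of 25 at Sema3a, 5 of 18 at Plxna2, 6 of 26 at Sema6a, 3 of 16 at Nrp1, 2 of 15 at Sema5a and 2 of 23 at Plxnc1. An E-box together with TAATT occurred in 17 sites (6.07%, interval 3.58 to 9.54), beside 4.22%, which lies within the interval. In replicate 2 alone its share was 5.01% beside 4.72%. Of the 17 sites, 5 were at Nrp2, 4 at Sema3a, 2 at Nrp1 and 1 at Sema6a, and there were none at Plxna2, Plxnc1 or Sema5a. TAATT is part of the homeodomain letters TAATTA, which stood in 3.93% beside 3.74%. Exact matches to the consensus of CTCF, an insulator protein, stood in 9 sites (3.21%, interval 1.48 to 6.01), beside 7.05%. Close variants, such as those in the Sema3b, Sema5a, Plxna2 and Plxna4 sequences shown above, were counted in neither share. These shares therefore cannot tell whether CTCF-like sequence of any kind was scarcer at the members. The low share of exact CTCF matches also held in replicate 1 alone (0.844% beside 2.58%) and in replicate 2 alone (1.19% beside 2.75%). Among the 50000 strongest peaks it was 7.41% of 81 sites. The share of all distal peaks at that setting was not counted, so this value cannot be set beside the 7.05%. TALE letters TGACAG stood in 10.4% beside 10.9%, nuclear receptor letters AGGTCA in 9.29% beside 8.89%, TEAD letters GGAATG in 8.21% beside 10.5%, AP-1 letters TGANTCA in 3.57% beside 4.40%, GATA letters AGATAA in 3.21% beside 5.01% and SOX letters in 1.07% beside 1.99%. None of these 10 motifs was found in 129 sites. A match names letters and not a bound factor.

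**Figure D4:**
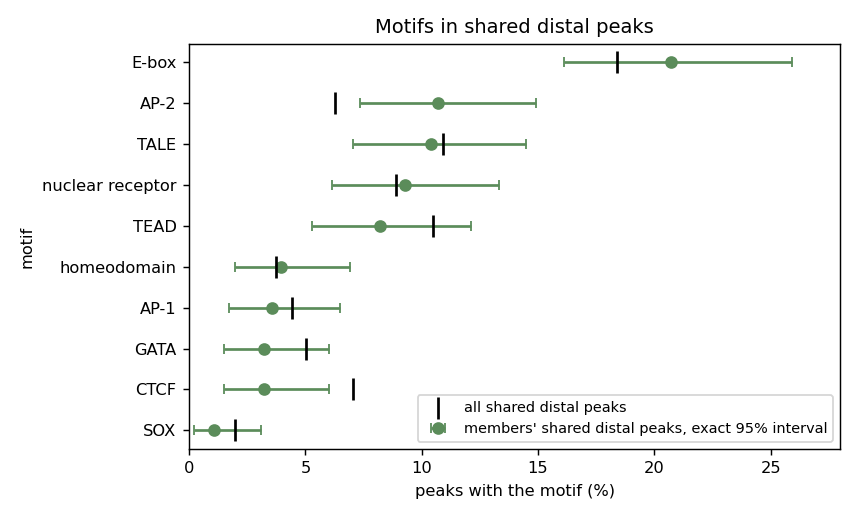
Share of peaks with each motif (horizontal axis, percent) among the 280 shared distal peaks of the members (points with exact 95% binomial intervals, which cover counting error only) and among all 62957 shared distal peaks (black ticks). The AP-2 tick lies below and the CTCF tick above the interval of the members. Overlapping peaks were counted separately.

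Sharing between the libraries differed from gene to gene. Of the members' 1066 distal peaks in replicate 1, 26.3% had a match, beside 36.3% for all genes, and of their 838 in replicate 2, 32.5%, beside 34.2%. Unmatched replicate 1 peaks of the members had a median strength of 6 and matched ones of 24. Peaks of strength 8 or less made up 47.2% of the members' replicate 1 peaks, beside 35.9% for all genes. These weak peaks were concentrated in certain genes. At Sema3d, replicate 1 had 168 distal peaks, 79.2% of them of strength 8 or less, replicate 2 had 46, and 14 were shared. In the 100 kb bin chr5:12400001-12500000, within that gene, replicate 1 had 100 peaks, 91 of them of strength 8 or less, where replicate 2 had 3. Sema3a had 153 and 77, Nrp2 215 and 128, and Plxna2 101 and 60, with 62.7%, 53.5% and 59.4% of the replicate 1 peaks at 8 or less. In contrast, Sema3e (15 and 30), Sema3f (17 and 35), Plxna1 (14 and 18) and Plxna4 (22 and 39) had no replicate 1 peak of that strength and more peaks in replicate 2. Sema6d had 14 in replicate 1 and 58 in replicate 2. Whether the weak peaks mark accessible sites was not tested. Without peaks of strength 8 or less, a setting chosen after seeing the data, 277 shared distal peaks were counted for 203.3 predicted. Few shared peaks were that weak, so this count says little about the unmatched ones. In replicate 1 alone the same limit gave 563 for 362.1 predicted, a ratio of 1.55 beside 1.89 with all its peaks.

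**Figure D5:**
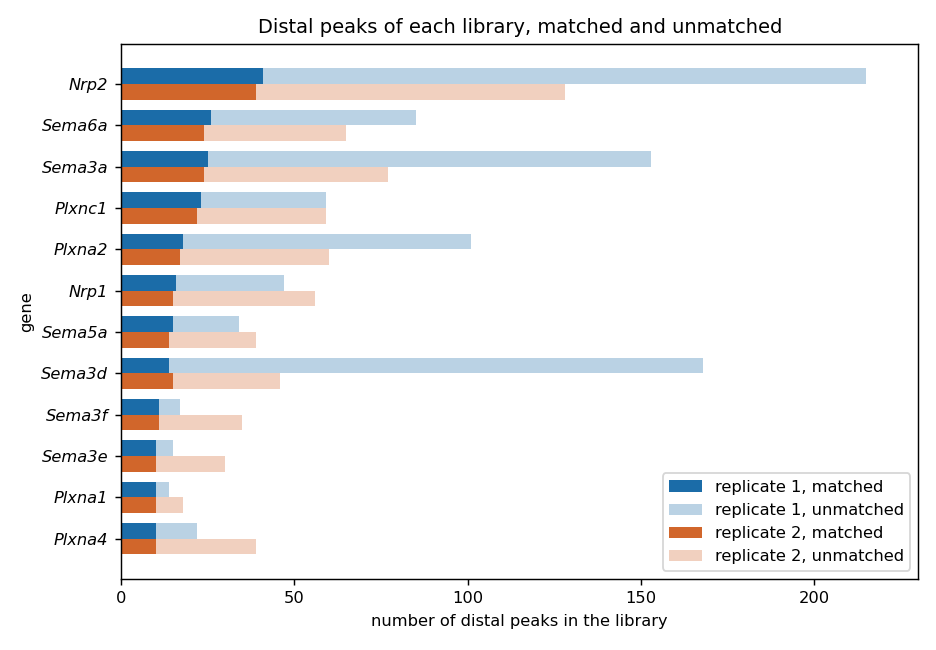
Number of distal peaks per library (horizontal axis) at the 12 members with 10 or more shared distal peaks, with matched peaks in full colour, unmatched peaks in pale colour, replicate 1 above and replicate 2 below. Sema3d, Sema3a, Nrp2 and Plxna2 have many unmatched replicate 1 peaks, and Sema3e, Sema3f and Plxna4 have more peaks in replicate 2.

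Partners and effectors of the pathway were 30 genes listed from textbook knowledge. A shared promoter peak was present at 28 of 30 (93.3%), beside 64.2% of all protein-coding genes. Genes in the third and the highest CpG quartile reached 94.9% and 97.2%, and the quartiles of these partners were not counted. The exceptions were Mical3, a member of the oxidase family that dismantles actin filaments, and Fes, a tyrosine kinase that binds plexins. The distal peaks of the 30 genes numbered 145 for 84.9 predicted, and 21 of 30 exceeded the prediction, beside 44.7% of all genes. The highest counts were at Farp1, a guanine exchange factor that binds plexins, with 17 for 5.59, at Fyn, a kinase downstream of plexins of the A family, with 17 for 7.06, at Mical2 with 13 for 4.99, and at Nrcam and Kdr with 10 each. Nrcam, an adhesion molecule that associates with Nrp2, was predicted to have 9.46, and Kdr, the VEGF receptor that pairs with neuropilins and was also among the endothelial markers, 6.76. All 5 collapsin response mediator genes (Crmp1, Dpysl2, Dpysl3, Dpysl4 and Dpysl5), a family known for relaying Sema3a signals to microtubules, had shared promoter peaks and between 2 and 9 distal ones.

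Other guidance families give a scale for these numbers. Their promoter counts stand beside 64.2% of all protein-coding genes, and the CpG content of their promoters was not compared. Eph receptors and ephrins had shared promoter peaks at 21 of 22 genes (Epha8 lacked one) and 241 distal peaks for 313.5 predicted, with the most at Epha4 (47), Efna5 (39), Epha7 (26) and Efnb2 (23). Slit and Robo genes had 6 of 7 (Robo4 lacked one) and 130 for 129.6, with the most at Robo1 (54), Robo2 (26), Slit2 (23) and Slit3 (18). Netrins and their receptors had 11 of 12 (Ntn5 lacked one) and 90 for 120.5, with the most at Ntn1 (15), Dcc (11), Ntng2 (10), and Unc5b and Unc5c (9 each). The ratio to the prediction was 0.77, 1.00 and 0.75 in these families, 1.71 in the partners and effectors and 1.36 in semaphorins, plexins and neuropilins, and the differences between lists were not tested. The order was another one in replicate 1, where Slit and Robo genes stood highest relative to their prediction. In replicate 2 the order was the same except in the lowest places, where Ephs and ephrins lay below netrins and receptors. In replicate 1 the Slit and Robo genes had 754 for 357.1, Ephs and ephrins 863 for 863.7, netrins and receptors 371 for 332.0 and partners and effectors 444 for 234.0, beside 1066 for 565.2 in semaphorins, plexins and neuropilins. In replicate 2 the same lists had 428 for 370.4, 830 for 896.0, 326 for 344.4 and 430 for 242.7, beside 838 for 586.3.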

How the data were processed

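DNase-seq peaks and hotspots of 2 libraries were used, called by the authors on each library alone on build mm10, per the labels and the files' notes. Which aligner and peak caller they ran is not stated there. The strength in the deposited peak files is the authors' own score per peak, of unknown scale, which reached 134 in replicate 1 and 149 in replicate 2 on the chromosomes analysed, so strong peaks are compressed. The deposited hotspot files give a −log10 q value with a ceiling of 100. No read totals were used, so depth is unknown and no interval covers read sampling. All peak starts lay on a grid of 20 bp.

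Peaks on chromosomes 1 to 19 and X were kept. Genes, exons and 41108 TSSs came from protein-coding transcripts of GENCODE M21 (basic set), and sequence from GRCm38, the build of mm10. Shared peaks, promoter peaks, distal peaks and interval predictions were computed in Python 3.11.15 with numpy 2.4.6, pandas 2.3.3 and scipy 1.17.1, and the steps were tested on simulated data. The deposited files repeat 62 rows in replicate 1 and 23 in replicate 2, which were kept. Named in detail are all members by role, the 8 with the most distal peaks and the 8 strongest distal peaks. Members without a shared promoter peak, or with one at several groups of TSSs, are also named in detail. Of other lists, the genes with the most distal peaks and those without a shared promoter peak are named. Membership follows gene names alone, but the family, the gene lists and the motifs were picked for study with earlier results of these data known. The overlap, window, peak number, library, distance limit and TSS set were varied, as given in the closing section. A distal site near Nrp2 is not reported here individually.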

Additional observations from a re-analysis of the deposited data

How the results depend on the processing

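The number of members with a shared promoter peak was 26, beside 64.2% of all genes. It stayed between 25 and 30 (all genes 58.4% to 70.8%) except where 90% of a peak had to be covered, when it was 8. On the 20 bp grid of peak starts that rule admits only peaks at identical positions, and all genes fell to 28.8%. The total of 280 shared distal peaks fell to 85 at 90% coverage (64.0 predicted), to 81 among the 50000 strongest peaks (68.3), to 166 within 100 kb of a TSS (158.4, a ratio of 1.05) and to 105 with TSSs of all biotypes (58.0). Leaving out 1 library gave 838 to 1066 distal peaks. Replicate 1 alone with strength over 8, a setting chosen after seeing the data, gave 563 for 362.1 predicted. Removing repeated rows left 280. Members above their prediction numbered 17 to 24 over the settings, beside 33.5% to 47.9% of all genes. Members with a distal peak numbered 24 to 29, beside 41.5% to 77.1%. The 33.5% comes from the setting with TSSs of all biotypes, where 53843 genes were counted. Limiting both peaks and intervals to 100 kb, also chosen after seeing the data, gave a ratio of 1.42. Of the comparisons of a motif share with its value under another setting, 30 moved less than the counting interval and 10 moved more. The median percent rank of promoter peaks was 93.7, or 93.5 with the peak nearest to the TSS. The causes of these shifts beyond construction were not tested. No paired analysis was possible because the series has 1 group. The depth of the libraries, which is unknown, and 2 libraries limit what unmatched peaks can show.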

Other observations

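With only the 50000 strongest peaks per library, few distal peaks were left at the class 3 genes of chromosome 5. Sema3a had 2 of its 25 shared distal peaks left for 5.61 predicted and Sema3e 0 of 10 for 2.88, both below a prediction that they exceed when all peaks are used. Sema3d had 2 of 14 for 5.88 and Sema3c 0 of 3 for 1.43. Nrp2 had 11 for 5.87 predicted, Plxnc1 8 for 2.52, Sema6a 8 for 3.85 and Sema3f 8 for 0.38, so that these remained above their predictions, while Plxna2 had 2 for 6.24. Sema4a was the member that lost its shared promoter peak in this setting.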
